A study of Arabidopsis thaliana with 40 samples.

Results

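The mutant line 2cysprx of Arabidopsis thaliana, named for the 2-cysteine peroxiredoxins of the chloroplast, was compared with the wild type (WT) under normal light. The comparison holds the 8 of the 40 arrays whose titles give these genotypes and this light, 4 biological replicates of each. All plants grew in soil with a day of 8 h and a night of 16 h at 80 µmol quanta m-2 s-1, and shoots were taken at 28 days without any light treatment. The 3 other mutants, cyp20-3, oastlB and serat2;1, kept in the same light with 4 arrays each, and the same 5 genotypes after 6 h at 800 µmol quanta m-2 s-1 (high light) were used where a result is set against them. The labels name each line by its gene alone. They state neither the allele, nor how many independent lines or plants went into a sample, nor the hour of harvest.

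2-Cysteine peroxiredoxins are abundant thiol peroxidases of the chloroplast stroma that reduce hydrogen peroxide and alkyl hydroperoxides with an active-site cysteine. The oxidised enzyme is reduced again by thioredoxins, chiefly by the NADPH-dependent thioredoxin reductase NTRC, and through these thiols it also passes oxidation on to other plastid proteins. Arabidopsis has a pair of genes for it, 2CPA and 2CPB. The protein is known to interact with the stromal cyclophilin CYP20-3, which in turn binds the plastid serine acetyltransferase SERAT2;1 of the cysteine synthase complex, whose other enzyme is the O-acetylserine(thiol)lyase OASB. The comparison asks which transcripts differ in undisturbed shoots of the line named for this peroxiredoxin. The arrays measure transcripts, so the amount of the protein itself was not tested.

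Values are log2 levels of 27826 probe sets, each named by 1 locus. A level is given as the log2 value on each array in the order of replicates 1 to 4, and a difference as the log2 difference, 2cysprx minus WT, ± its standard error from the limma fit. A log2 difference of 1 is a 2-fold change. A gene was called at a Benjamini-Hochberg adjusted p under 0.05 over all 27826 genes. Of these, 2819 were called (10.1%), 1556 higher (5.59%) and 1263 lower (4.54%) in 2cysprx. At least 2-fold changes were few (0.41%), with 55 rises and 59 falls. The middle 90% of all genes lay between log2 differences of -0.41 and 0.44, and the median was -0.01. On 3507 genes (12.6%) the 4 values of one group did not overlap those of the other, 1841 higher (6.62%) and 1666 lower (5.99%) in 2cysprx. The count of 2819 rests on an estimate of the spread shared by all 40 arrays. With the 8 compared arrays alone in the fit it was 618, among which 353 were higher. Pearson's r across genes was 0.985 to 0.990 within either group and 0.979 to 0.988 between them, which describes the arrays and is no test. Leaving out 2cysprx replicate 2, which had the lowest mean r among the 2cysprx arrays with their own group, gave the smallest count of the 8 left-out arrays, 1954.

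Both targeted genes were low on every 2cysprx array. For 2CPA the log2 levels were 5.35, 5.09, 5.62 and 5.17 in 2cysprx and 10.47, 10.86, 10.63 and 10.85 in WT, a log2 difference of -5.39 ± 0.40 or 41.9-fold lower (adjusted p = 3e-11). For 2CPB they were 6.85, 6.59, 7.06 and 6.80 against 9.35, 9.26, 8.99 and 9.21, a log2 difference of -2.38 ± 0.15 or 5.2-fold lower (adjusted p = 2e-12). Neither gene's groups came near each other, and the 2cysprx arrays also lay below all arrays of the other mutants. 2CPA, which the reference table gives no symbol, was named by its locus AT3G11630. The 2 genes are close copies, and how far probes of one bind transcripts of the other was not tested. Among the 50 loci on each side of 2CPA, 14 of 100 were called, and 13 of 100 around 2CPB, against 10.1% of all genes.

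**Figure D1:**
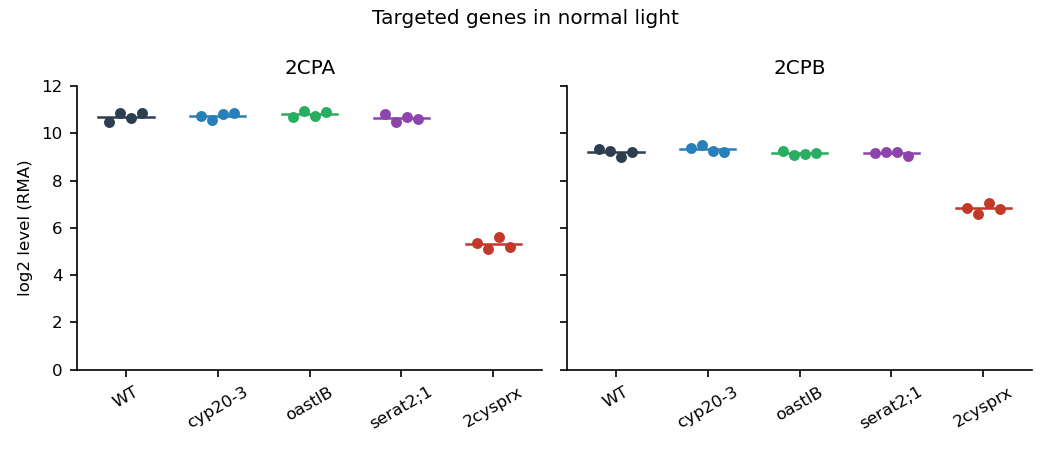
Log2 level (RMA) of 2CPA and 2CPB on each normal light array of the 5 genotypes, with points for the 4 replicates and a line for their mean. The 2cysprx arrays lie at 5.09 to 5.62 for 2CPA and 6.59 to 7.06 for 2CPB, all below the 16 other arrays.

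No other peroxiredoxin with a symbol in the reference table was called. The 6 further members, PRXQ, PRXIIB, PRXIIC, PRXIIF, PER1 and sulfiredoxin SRX, had log2 differences between -0.21 and 0.24. AT3G52960 and AT1G60740, which were on the list but have no symbol, had log2 differences of -0.10 ± 0.11 (adjusted p = 0.68) and -0.33 ± 0.24 (adjusted p = 0.48). For PRXQ, a thiol peroxidase of the thylakoid, the log2 difference was 0.06 ± 0.09 (adjusted p = 0.76). For SRX, which reduces overoxidised 2-cysteine peroxiredoxin, it was -0.05 ± 0.11 (adjusted p = 0.87). No partner in the protein module was called. CYP20-3 gave a log2 difference of 0.03 ± 0.11 (adjusted p = 0.93), OASB one of -0.09 ± 0.14 (adjusted p = 0.78) and SERAT2;1 one of -0.13 ± 0.14 (adjusted p = 0.67). These 5 genes were picked for their known roles and not by the size of their differences. Of 15 cyclophilin and cysteine synthase genes, 1 rose and 1 fell, against 5.59% and 4.54% of all genes. The cytosolic cyclophilin ROC2 read log2 levels of 6.10, 7.03, 6.15 and 6.07 in 2cysprx and 5.27, 5.89, 5.90 and 5.32 in WT (log2 difference 0.74 ± 0.17, adjusted p = 0.0026). Its groups did not overlap, and the highest 2cysprx value was that of replicate 2. CYP38, a cyclophilin of the thylakoid lumen needed for photosystem II assembly, fell (log2 difference -0.22 ± 0.07, adjusted p = 0.026). This call was lost without 2cysprx replicate 2 or 4 or WT replicate 1 or 3 (adjusted p = 0.147, 0.064, 0.073 and 0.061). In the fit of the 8 arrays alone the adjusted p was 0.15 for ROC2 and 0.32 for CYP38.

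Enzymes that handle reactive oxygen were called in both directions, as were all genes (5.59% higher and 4.54% lower). Of 10 superoxide dismutase and catalase genes, 3 rose and 1 fell, with a median log2 difference of 0.14. FSD3 and FSD2 encode iron superoxide dismutases that work together at the plastid nucleoids. FSD3 stood at log2 levels of 8.47, 8.78, 8.50 and 8.54 in 2cysprx and 7.92, 7.96, 7.92 and 8.03 in WT (log2 difference 0.62 ± 0.10, adjusted p = 4e-05). FSD2 stood at 8.12, 8.51, 8.21 and 8.20 against 7.75, 7.77, 7.85 and 7.57 (log2 difference 0.53 ± 0.09, adjusted p = 0.00021). In both the lowest 2cysprx array was above the highest WT array. The catalases CAT2 and CAT3, which break down hydrogen peroxide in peroxisomes, went opposite ways, with log2 differences of 0.53 ± 0.13 (adjusted p = 0.0037) and -0.39 ± 0.09 (adjusted p = 0.0024). The mean log2 level of the 10 genes was 8.89 to 9.01 on the 2cysprx arrays and 8.76 to 8.81 on the WT arrays. FSD2, CAT2 and CAT3 missed the threshold with the 8 arrays alone (adjusted p = 0.054, 0.09 and 0.11).

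Among 20 glutathione peroxidase-like and methionine sulfoxide reductase genes, 4 rose and 2 fell. GPX7, a plastid peroxidase of this family, read log2 levels of 7.21, 6.84, 6.96 and 7.0 in 2cysprx and 5.85, 6.06, 5.78 and 6.17 in WT, a log2 difference of 1.03 ± 0.17 (adjusted p = 5.7e-05). MSRB6, which reduces oxidised methionine, read 6.59, 7.28, 6.58 and 6.66 against 5.22, 5.70, 6.04 and 5.86, a log2 difference of 1.07 ± 0.20 (adjusted p = 0.00031). Neither gene's groups overlapped, and for MSRB6 replicate 2 of 2cysprx stood above the rest. GPX5 fell (log2 difference -0.50 ± 0.09, adjusted p = 0.00036, or 0.054 with the 8 arrays alone). Without 2cysprx replicate 2 the count of rises in this list went from 4 to 2. Of 10 genes of ascorbate and glutathione recycling, 1 rose and 1 fell. Beside the 5.59% of all genes that rose and the 4.54% that fell, this and the small counts below are descriptions. GR1, the cytosolic glutathione reductase, had a log2 difference of 0.35 ± 0.07 (adjusted p = 0.0013) and DHAR1, a dehydroascorbate reductase, one of -0.51 ± 0.14 (adjusted p = 0.016). DHAR1's 2cysprx values overlapped those of WT, and its call was lost without WT replicate 1 (log2 difference -0.34, adjusted p = 0.13). Both calls were lost with the 8 arrays alone (adjusted p = 0.13 and 0.18). Of 8 ascorbate peroxidase genes 1 rose, which was called neither with the 8 arrays alone nor without 2cysprx replicate 1 or 2 or WT replicate 2, 3 or 4. Of 22 glutathione transferase and detoxification genes 2 fell. These falls numbered 0 with the 8 arrays alone, where 1 gene of the list rose, 0 without 2cysprx replicate 3 or WT replicate 4, 1 without 2cysprx replicate 1 or 4 or WT replicate 1 or 2, and 3 without 2cysprx replicate 2.

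The plastid thioredoxin system, from which the peroxiredoxin takes its electrons, showed 2 rises and 3 falls in 21 genes. For this and the next lists the shares of all genes were 5.59% higher and 4.54% lower. TRXZ, a thioredoxin-like subunit of the plastid RNA polymerase complex, lay at log2 levels of 8.43, 8.56, 8.38 and 8.29 in 2cysprx and 7.80, 7.72, 7.80 and 7.74 in WT (log2 difference 0.65 ± 0.08, adjusted p = 2.1e-06). ACHT4, an atypical thioredoxin that oxidises other proteins and is itself oxidised by 2-cysteine peroxiredoxin, lay at 6.71, 6.71, 6.37 and 6.52 against 7.19, 7.22, 7.31 and 7.34 (log2 difference -0.69 ± 0.13, adjusted p = 0.00042). The groups of both genes were apart, TRXZ upward and ACHT4 downward. TRXM3 and WCRKC1, a further m-type and an atypical thioredoxin, fell by smaller amounts, with log2 differences of -0.50 ± 0.13 (adjusted p = 0.0065) and -0.48 ± 0.11 (adjusted p = 0.0032). These 2 missed the threshold with the 8 arrays alone (adjusted p = 0.057 and 0.051). Sulfate assimilation and glutathione synthesis, the pathway of cysteine supply, held 2 rises and 2 falls in 19 genes, and none of 9 sulfur starvation genes was called. APR2, the main adenosine 5'-phosphosulfate reductase of leaves, had log2 levels of 7.27, 7.04, 7.23 and 7.11 in 2cysprx and 6.63, 6.75, 6.45 and 6.71 in WT (log2 difference 0.53 ± 0.11, adjusted p = 0.0015). APS4, an ATP sulfurylase, had 6.32, 6.25, 6.12 and 5.79 against 6.73, 6.78, 6.68 and 6.74 (log2 difference -0.61 ± 0.10, adjusted p = 5.5e-05). These enzymes of successive steps thus differed in opposite directions, each with groups that did not overlap.

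Apart from the targeted genes, the largest difference was a rise. AT4G05370, for which the reference table has no symbol, read log2 levels of 5.6, 4.56, 5.50 and 5.52 in 2cysprx and 2.28, 2.64, 1.77 and 2.3 in WT, a log2 difference of 3.05 ± 0.22 or 8.28-fold higher (adjusted p = 3e-11). Replicate 2 was the lowest of the 2cysprx arrays and was still well above the highest WT array. TOM7-2, a small subunit of the mitochondrial protein import pore, read 5.22, 5.63, 5.05 and 5.52 against 3.53, 3.47, 4.21 and 3.38 (log2 difference 1.71 ± 0.39, adjusted p = 0.003). GPT2, the plastid glucose 6-phosphate/phosphate translocator that leaves make when sugar or light increases, read 5.98, 7.20, 6.07 and 6.64 against 5.37, 4.60, 4.77 and 4.79 (log2 difference 1.59 ± 0.26, adjusted p = 6.1e-05). The groups of these 3 genes were apart, with the widest spread inside 2cysprx for GPT2. ERD9, a glutathione transferase of the tau class, read 5.91, 6.97, 5.97 and 6.11 against 5.0, 4.42, 4.90 and 5.29 (log2 difference 1.34 ± 0.18, adjusted p = 5.4e-06). AT1G51380, AT3G49320 and AT1G13650, loci without a symbol, had log2 differences of 1.57 ± 0.28, 1.48 ± 0.21 and 1.42 ± 0.18 (adjusted p = 0.00024, 7.2e-06 and 1.6e-06).

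**Figure D2:**
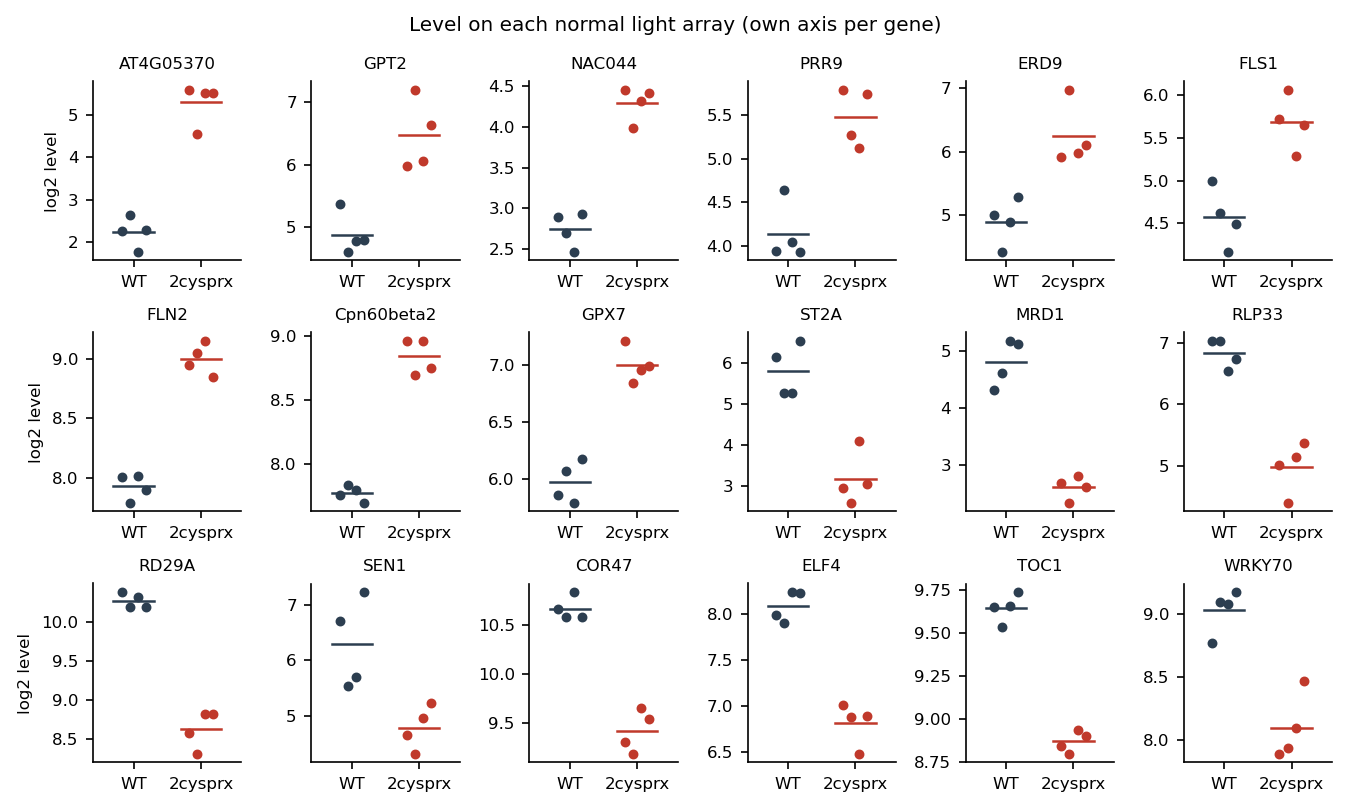
Log2 level (RMA) of 18 named genes on each WT and 2cysprx array in normal light, with a line for the mean of 4 arrays and an axis of its own for each gene. In every panel the 2 groups do not overlap; the 9 genes from AT4G05370 to GPX7 are higher in 2cysprx and the 9 from ST2A to WRKY70 are lower.

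The largest fall outside the targeted genes was that of ST2A, a sulfotransferase that conjugates hydroxyjasmonate. Its log2 levels were 2.95, 2.58, 4.1 and 3.06 in 2cysprx and 6.13, 5.25, 5.26 and 6.54 in WT, a log2 difference of -2.63 ± 0.29 or 6.17-fold lower (adjusted p = 2.1e-07). MRD1, a gene first described as low in a methionine-overaccumulating mutant, followed with 2.69, 2.32, 2.81 and 2.62 against 4.32, 4.61, 5.18 and 5.12 (log2 difference -2.2 ± 0.21, adjusted p = 1.1e-08). RLP33, a receptor-like protein, read 5.02, 4.40, 5.15 and 5.38 against 7.03, 7.02, 6.54 and 6.73 (log2 difference -1.84 ± 0.20, adjusted p = 1.5e-07). The 2cysprx arrays lay below all WT arrays in each of the 3. AT5G44260, listed as the tandem zinc finger protein TZF5, had a log2 difference of -1.75 ± 0.21 (adjusted p = 1e-06). CIPK25, a kinase that is switched on by calcineurin B-like calcium sensors, had one of -1.37 ± 0.23 (adjusted p = 0.00012).

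Many genes that respond to abscisic acid and dehydration fell. Of 22 measured members 11 fell, none rose, and the median log2 difference was -0.56, against -0.01 over all genes. RD29A, a classical marker of drought, cold and abscisic acid, read log2 levels of 8.58, 8.30, 8.81 and 8.82 in 2cysprx and 10.39, 10.19, 10.33 and 10.20 in WT (log2 difference -1.65 ± 0.14, adjusted p = 6.4e-10). COR47, a dehydrin, read 9.31, 9.19, 9.65 and 9.54 against 10.66, 10.57, 10.84 and 10.58 (log2 difference -1.24 ± 0.14, adjusted p = 2.4e-07). The spread inside each group was small beside the gap between them. LTI30, a second dehydrin, and RD20, a caleosin of lipid bodies, had log2 differences of -1.45 ± 0.30 (adjusted p = 0.00097) and -1.34 ± 0.23 (adjusted p = 0.00011). COR413IM1, a cold-regulated protein of the inner chloroplast envelope that lies outside the list, read 9.25, 8.38, 9.07 and 9.32 against 10.61, 10.41, 10.31 and 10.44 (log2 difference -1.44 ± 0.17, adjusted p = 6.4e-07). NCED3, the enzyme that sets the rate of abscisic acid synthesis under drought, read 4.91, 4.43, 4.84 and 4.96 against 5.76, 5.46, 5.78 and 5.83 (log2 difference -0.92 ± 0.16, adjusted p = 0.00018). The mean log2 level of the 22 genes lay at 5.03 to 5.36 on the 2cysprx arrays and at 5.72 to 5.86 on the WT arrays. Across the left-out arrays the list kept 9 to 12 falls, and with the 8 arrays alone it had 8.

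Circadian clock genes were called in opposite directions by the time of day at which they peak. Of 12 genes of the morning and day 6 rose and none fell (median log2 difference 0.34), and of 14 evening genes 8 fell and none rose (median -0.34). PRR9, a pseudo-response regulator of the morning, stood at log2 levels of 5.79, 5.27, 5.12 and 5.74 in 2cysprx and 3.94, 4.64, 4.05 and 3.93 in WT (log2 difference 1.34 ± 0.20, adjusted p = 2.3e-05). CCA1, a MYB factor of dawn, stood at 5.23, 4.73, 5.15 and 4.74 against 4.50, 4.51, 4.05 and 4.12 (log2 difference 0.67 ± 0.15, adjusted p = 0.0031). LNK3, which assists morning factors, had a log2 difference of 0.64 ± 0.15 (adjusted p = 0.0048). Among evening genes TOC1, a repressor of CCA1, stood at 8.85, 8.80, 8.94 and 8.90 against 9.65, 9.54, 9.66 and 9.74 (log2 difference -0.78 ± 0.08, adjusted p = 2.8e-08). ELF4, a part of the evening complex, stood at 7.01, 6.89, 6.48 and 6.90 against 7.99, 7.90, 8.24 and 8.22 (log2 difference -1.27 ± 0.16, adjusted p = 1.3e-06). The groups of these 5 genes did not overlap, with a gap wider than the spread inside either group for TOC1 and ELF4 and a narrow one for LNK3. COR27, a repressor of evening genes, and FKF1, a blue light receptor of day length, had log2 differences of -1.13 ± 0.14 (adjusted p = 1.2e-06) and -0.78 ± 0.11 (adjusted p = 7.1e-06). The count of 6 morning rises went to 3 without 2cysprx replicate 1 or 2 or WT replicate 2 or 3, and to 1 with the 8 arrays alone, where the adjusted p was 0.07 for CCA1 and 0.12 for LNK3. Evening falls numbered 6 to 8 across the left-out arrays and 4 with the 8 arrays alone. The part of the hour of harvest in these differences was not tested.

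Several genes known to rise in darkness and sugar starvation fell. Of 19, 8 fell and none rose, with a median log2 difference of -0.18. SEN1, a dark-inducible gene, had log2 levels of 4.66, 4.31, 4.97 and 5.23 in 2cysprx and 6.70, 5.54, 5.71 and 7.23 in WT (log2 difference -1.5 ± 0.30, adjusted p = 0.00077). AT2G33830, listed as dormancy-associated DRM2, had 7.28, 7.61, 8.02 and 8.06 against 8.85, 9.01, 9.52 and 9.19 (log2 difference -1.40 ± 0.17, adjusted p = 1.2e-06). Neither gene's groups overlapped, and the WT arrays varied more for SEN1 than for AT2G33830. BT2, a BTB and TAZ domain protein repressed by sugar, and TPS11, a class II trehalose phosphate synthase, had log2 differences of -1.28 ± 0.29 (adjusted p = 0.0025) and -1.04 ± 0.24 (adjusted p = 0.0036). Starch genes showed 1 rise and 6 falls in 25. GBSS1, the granule-bound starch synthase, had 6.29, 6.79, 5.91 and 6.20 against 5.98, 5.24, 4.87 and 5.22 (log2 difference 0.97 ± 0.19, adjusted p = 0.00067), with 1 2cysprx array below the highest WT array. The plastid β-amylase BAM1 and the debranching enzyme ISA3 fell, with log2 differences of -0.59 ± 0.12 (adjusted p = 0.00065) and -0.41 ± 0.10 (adjusted p = 0.004). Starch falls numbered 2 without 2cysprx replicate 2 or WT replicate 1 and 3 without WT replicate 2. With the 8 arrays alone the falls of dark genes numbered 4 and those of starch genes 0, and SEN1, GBSS1, BAM1 and ISA3 missed the threshold (adjusted p = 0.062, 0.076, 0.066 and 0.12).

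Several genes of flavonoid synthesis rose. Of 26 flavonol and anthocyanin genes 9 rose, none fell, and the median log2 difference was 0.37. TT4, the chalcone synthase at the head of the pathway, read log2 levels of 8.74, 9.34, 8.82 and 8.81 in 2cysprx and 8.34, 7.69, 7.71 and 7.92 in WT (log2 difference 1.01 ± 0.17, adjusted p = 6.1e-05). FLS1, the flavonol synthase, read 5.72, 6.06, 5.29 and 5.65 against 5.0, 4.62, 4.16 and 4.50 (log2 difference 1.11 ± 0.15, adjusted p = 2.9e-06). SCPL10, a carboxypeptidase-like acyltransferase of anthocyanin decoration, read 6.20, 6.77, 6.35 and 5.96 against 5.39, 5.37, 5.38 and 5.01 (log2 difference 1.03 ± 0.16, adjusted p = 3.7e-05). Groups were apart for all 3, and replicate 2 was the highest 2cysprx array in each. The count of rises was 7 to 9 across the left-out arrays and 5 with the 8 arrays alone.

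Several immune genes fell. Of 29 genes of salicylate and immune response 8 fell and none rose, with a median log2 difference of -0.32. WRKY70, a transcription factor downstream of salicylate, stood at log2 levels of 7.89, 7.94, 8.10 and 8.47 in 2cysprx and 8.77, 9.09, 9.08 and 9.17 in WT (log2 difference -0.93 ± 0.17, adjusted p = 0.00031). Its relatives WRKY54 and WRKY53 had log2 differences of -0.83 ± 0.17 (adjusted p = 0.00083) and -0.85 ± 0.19 (adjusted p = 0.0021). The 3 families named next were listed after these values were seen, so their counts are descriptions. Of 52 receptor-like proteins 10 fell and none rose. RLP38 stood at 6.81, 7.09, 7.45 and 7.38 against 8.92, 8.81, 8.03 and 8.71 (log2 difference -1.43 ± 0.17, adjusted p = 5.9e-07), and RLP36 and RLP32 had log2 differences of -1.22 ± 0.24 (adjusted p = 0.00063) and -1.32 ± 0.23 (adjusted p = 0.00016). Probes of close copies within this family may bind each other's transcripts, which was not tested. Of 38 cysteine-rich receptor-like kinases 7 fell, the most by CRK4 (log2 difference -0.98 ± 0.25, adjusted p = 0.0084), and of 67 WRKY factors 8 fell and 1 rose. WRKY70 is counted both among these and among the salicylate and immune genes, and WRKY53, WRKY54 and WRKY38 are also on the salicylate and immune list. Over all genes 4.54% fell and 5.59% rose. The kinase falls numbered 4 without 2cysprx replicate 1 and 3 without replicate 2. The WRKY falls numbered 5 without 2cysprx replicate 2 or WT replicate 4 and 4 without 2cysprx replicate 3. With the 8 arrays alone the falls were 5 for immune genes, 7 for receptor-like proteins, 3 for the kinases and 3 for WRKY factors, and RLP32 missed the threshold (adjusted p = 0.071). Jasmonate genes held 1 rise and 4 falls in 32; the falls ranged from 1 to 7 across the left-out arrays and were 0 with the 8 arrays alone.

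In 6 lists of photosynthesis and pigment genes 17 of 126 members were called (13.5%), against 10.1% of all genes. Of 20 light harvesting genes 2 fell and none rose, and of 36 genes of photosynthetic electron transport 2 rose and 4 fell, with median log2 differences of -0.13 and -0.07. Values of 2cysprx lay below those of WT without overlap for 6 of the 20 and 8 of the 36, against 5.99% of all genes, and 19 of 20 and 28 of 36 differences were below 0. LHCB1.4, a protein of the main antenna, had a log2 difference of -0.41 ± 0.11 (adjusted p = 0.013), which missed the threshold without 2cysprx replicate 3 (adjusted p = 0.054) and with the 8 arrays alone (adjusted p = 0.088). FD1, the minor leaf ferredoxin, stood at log2 levels of 10.64, 10.57, 10.57 and 10.36 in 2cysprx and 9.78, 10.03, 9.90 and 10.12 in WT (log2 difference 0.58 ± 0.09, adjusted p = 1.9e-05). The 4 falls in electron transport were 0 without 2cysprx replicate 3, 1 without 2cysprx replicate 2 or WT replicate 1, and 2 without any one of 2cysprx replicate 1 and WT replicates 2, 3 and 4. Calvin-Benson cycle genes held 2 rises in 20, photorespiration 1 rise in 13 and chlorophyll synthesis 2 rises and 1 fall in 22. The list of carotenoids and the xanthophyll cycle held 2 rises in 15. Its 1 fall was that of NCED3, the abscisic acid enzyme given above. No other calls were in these 4 lists. With the 8 arrays alone no rise was left in these 4 lists, no fall in chlorophyll synthesis, light harvesting or electron transport, and 1 rise in electron transport. Over the 8 left-out arrays rises numbered 1 to 3 for the Calvin-Benson cycle and 1 to 2 for photorespiration. They numbered 0 to 2 for chlorophyll synthesis and 1 to 3 for the carotenoid list. Falls numbered 0 to 3 for light harvesting, 0 to 2 for chlorophyll synthesis and 1 to 2 for the carotenoid list. The counts of 0 came without 2cysprx replicate 3 for light harvesting, without 2cysprx replicate 1 or 2 or WT replicate 3 for the chlorophyll rises, and for its fall without any one array except 2cysprx replicate 4 and WT replicate 1. The Calvin-Benson count was 1 without any one 2cysprx array or WT replicate 2 or 3, the carotenoid count of rises 1 without 2cysprx replicate 1, 3 or 4 or WT replicate 1 or 2, and the light harvesting count 1 without 2cysprx replicate 1 or 2 or WT replicate 2, 3 or 4.

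Genes that build chloroplasts, mitochondria and ribosomes were called mostly upward, in families listed after their members' values were seen, whose counts are descriptions. Of 18 plastid RNA polymerase-associated proteins 8 rose and none fell. FLN2, a fructokinase-like protein of that complex, read log2 levels of 8.95, 9.05, 9.15 and 8.85 in 2cysprx and 8.01, 7.78, 8.01 and 7.90 in WT (log2 difference 1.07 ± 0.10, adjusted p = 7.1e-09). FLN1, PTAC12 and PRIN2, partners in the same complex, had log2 differences of 0.79 ± 0.09 (adjusted p = 3.3e-07), 0.71 ± 0.08 (adjusted p = 3e-07) and 0.80 ± 0.13 (adjusted p = 5.2e-05). For FLN2 the gap between the groups was wider than the spread inside either. Of 8 chaperonins 7 rose. Cpn60beta2, a subunit of the plastid folding chamber, read 8.97, 8.70, 8.96 and 8.75 against 7.76, 7.84, 7.80 and 7.69 (log2 difference 1.07 ± 0.12, adjusted p = 2.5e-07), and CPN10, the mitochondrial cochaperonin, had a log2 difference of 0.67 ± 0.11 (adjusted p = 4.3e-05). The plastid HSP70 chaperones CPHSC70-2 and CPHSC70-1, which accompany protein import, had log2 differences of 0.58 ± 0.09 (adjusted p = 3.7e-05) and 0.45 ± 0.08 (adjusted p = 0.00032). They were the 2 rises, beside 1 fall, in the list of 23 heat shock factors and chaperones.

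Among protein import subunits 10 of 23 rose for mitochondria and 4 of 14 for plastids, with no falls. TIM8, a carrier chaperone between the mitochondrial membranes, stood at log2 levels of 6.34, 6.87, 6.45 and 6.58 in 2cysprx and 5.79, 5.92, 5.99 and 5.92 in WT (log2 difference 0.65 ± 0.10, adjusted p = 1.6e-05). TOC33, the receptor for preproteins at the chloroplast surface, stood at 7.90, 8.17, 7.96 and 8.04 against 7.40, 7.43, 7.62 and 7.52 (log2 difference 0.52 ± 0.09, adjusted p = 0.0002). Both showed no overlap between the groups. Of 39 ribosomal proteins with a symbol of that kind 15 rose and none fell, for instance RPS5B (log2 difference 0.63 ± 0.11, adjusted p = 0.00021), and of 6 nucleolar proteins 5 rose. FIB2, a fibrillarin that methylates ribosomal RNA, stood at 7.5, 7.93, 7.90 and 7.35 against 6.66, 6.63, 6.89 and 6.71 (log2 difference 0.94 ± 0.13, adjusted p = 9.2e-06). NOP56, its partner in small nucleolar particles, had a log2 difference of 0.78 ± 0.11 (adjusted p = 1.3e-05). Of 160 embryo-defective genes, named for the arrest of embryos without them, 36 rose and 1 fell; the largest rise was that of EMB2729 (log2 difference 1.01 ± 0.14, adjusted p = 4e-06). With the 8 arrays alone rises numbered 6 for the polymerase-associated proteins, 2 for chaperonins, 2 for mitochondrial and 2 for plastid import, 2 for ribosomal and 3 for nucleolar proteins, and 10 for embryo-defective genes, among which none fell. Without one array at a time 32 to 43 embryo-defective genes rose. CPHSC70-1, CPN10 and RPS5B missed the threshold with the 8 arrays alone (adjusted p = 0.073, 0.062 and 0.07).

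Several genes of the DNA damage response rose. The list was drawn up after NAC044, PARP2 and GMI1 had been seen among the large rises, so its count of 5 rises and no fall in 19 genes is a description. NAC044, a transcription factor that acts below the damage regulator SOG1, read log2 levels of 4.46, 3.99, 4.32 and 4.42 in 2cysprx and 2.90, 2.70, 2.46 and 2.93 in WT (log2 difference 1.55 ± 0.26, adjusted p = 0.0001). PARP2, a poly(ADP-ribose) polymerase that binds broken DNA, read 5.05, 4.68, 5.29 and 4.91 against 2.96, 4.1, 3.86 and 3.48 (log2 difference 1.38 ± 0.19, adjusted p = 4.9e-06). GMI1, which takes part in repair by recombination, read 5.06, 5.05, 5.13 and 5.0 against 4.82, 4.22, 3.90 and 3.48 (log2 difference 0.95 ± 0.19, adjusted p = 0.00084). For GMI1 the 2cysprx arrays were nearly equal and the WT arrays varied. RNR2A, a small subunit of ribonucleotide reductase, read 7.68, 8.23, 7.91 and 7.71 against 7.07, 7.05, 7.07 and 7.18 (log2 difference 0.79 ± 0.10, adjusted p = 1e-06). The mean log2 level of the 19 genes lay at 5.15 to 5.29 on the 2cysprx arrays and at 4.79 to 5.02 on the 16 arrays of the other genotypes. The list was drawn up from values on these same arrays, so this gap too is a description. Without WT replicate 3 the count of rises was 8. It was 3 with the 8 arrays alone, and 2 with only probe sets at or above the median level, a filter that tests fewer genes of the list. The 12 markers of dividing cells, none of them called, had a median log2 difference of 0.22 with 11 above 0, beside medians of 0.18 for the DNA damage, 0.26 for the ribosomal and 0.59 for the nucleolar list. Their part in these results was not tested. In GMI1 the adjusted p was 0.07 with the 8 arrays alone.

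**Figure D3:**
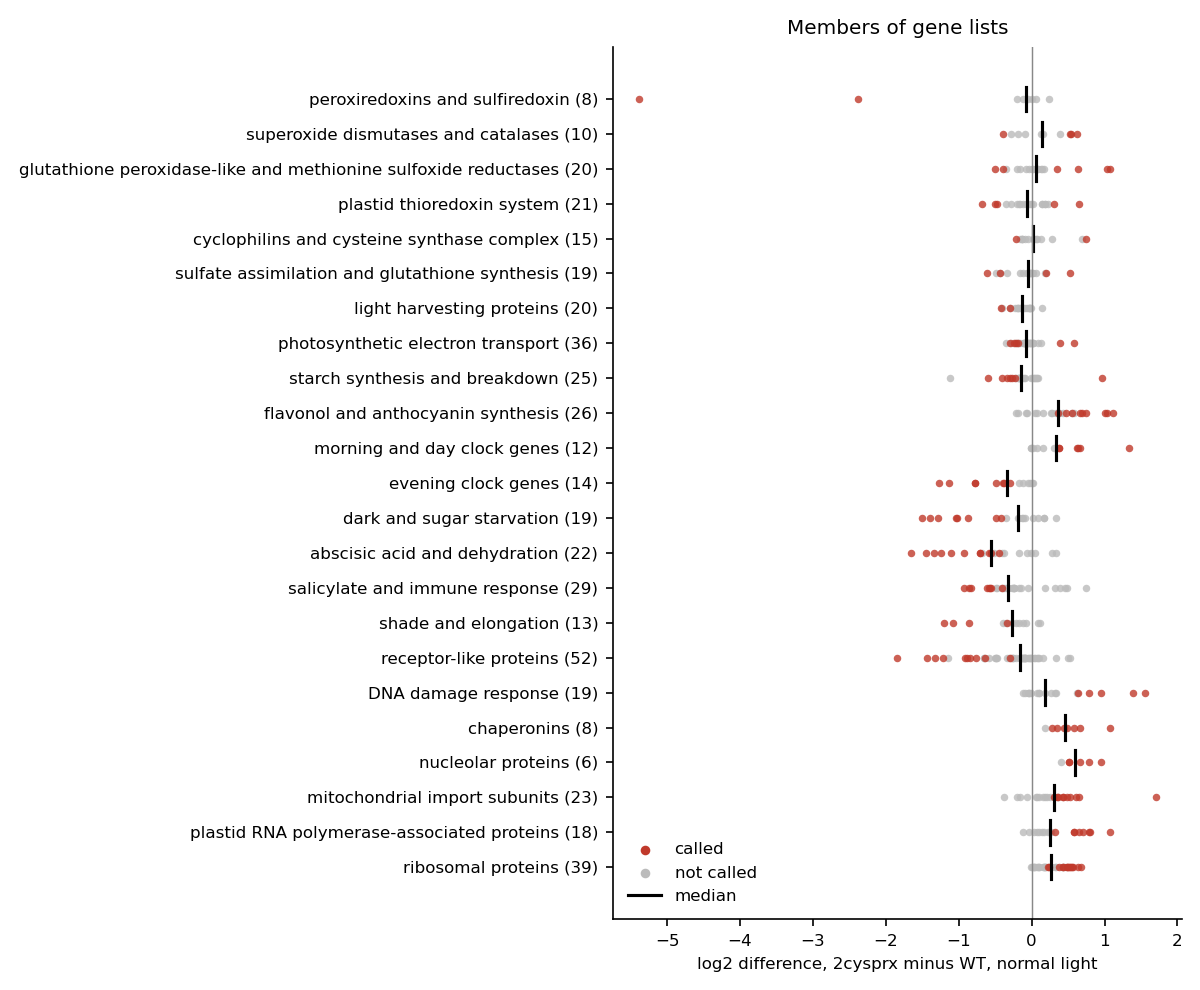
Log2 difference, 2cysprx minus WT in normal light, of each measured member of 23 gene lists (number of members in brackets), called members in red, others in grey and the median as a black line. The abscisic acid list lies furthest to the left with a median of -0.56, and the nucleolar, chaperonin and flavonol lists furthest to the right with 0.59, 0.46 and 0.37. The nucleolar and chaperonin lists were drawn up after their members' values were seen.

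Some shade and senescence genes also fell. Of 13 shade and elongation genes 4 fell and none rose. PIL1, a marker of shade, and IAA29, an auxin response repressor, had log2 differences of -1.2 ± 0.28 (adjusted p = 0.0034) and -1.08 ± 0.19 (adjusted p = 0.00013). Of 12 senescence markers 5 fell, among them the chlorophyll breakdown enzymes NYC1 and PPH, with log2 differences of -0.38 ± 0.08 (adjusted p = 0.0012) and -0.43 ± 0.10 (adjusted p = 0.0043). The 5 falls were 2 without 2cysprx replicate 2 or WT replicate 4 and 3 without 2cysprx replicate 3 or WT replicate 2. With the 8 arrays alone 1 shade and elongation gene and 0 senescence markers fell, and PIL1, IAA29, NYC1 and PPH missed the threshold (adjusted p = 0.087, 0.0503, 0.096 and 0.14). Of 13 genes of touch and cell wall growth 1 rose and 1 fell, of 22 glucosinolate genes 2 rose and of 13 iron genes 1 rose. Of 22 reactive oxygen and retrograde markers 2 rose and 1 fell, and none of 6 sigma factors was called. Among all genes 5.59% rose and 4.54% fell. The calls in the touch, glucosinolate and iron lists were lost with the 8 arrays alone. AT2G21640, written on the reactive oxygen list but without a symbol and so outside its count, rose (log2 difference 1.16 ± 0.18, adjusted p = 3.9e-05).

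Markers of other organs and cell types are given beside all genes, of which 5.59% rose and 4.54% fell. Root markers held 1 rise in 12, floral and pollen markers none in 12, guard and myrosin cell markers 2 falls in 12 and dividing cell markers none in 12. Whether these counts differ from the shares of all genes was not tested. The root gene was PYK10, a β-glucosidase (log2 difference 0.66 ± 0.21, adjusted p = 0.041). Its groups overlapped, and the call was lost without 2cysprx replicate 1, 2 or 3 or WT replicate 2 or 4 (adjusted p = 0.051, 0.201, 0.063, 0.164 and 0.183). The 2 falls were the myrosinases TGG1 and TGG2, with log2 differences of -0.23 ± 0.06 (adjusted p = 0.013) and -0.32 ± 0.07 (adjusted p = 0.0034). TGG1 missed the threshold without 2cysprx replicate 2 or WT replicate 2 or 4 (adjusted p = 0.068, 0.052 and 0.051). In whole shoots fewer cells of a type and less transcript per cell cannot be told apart. PYK10, TGG1 and TGG2 missed the threshold with the 8 arrays alone (adjusted p = 0.22, 0.29 and 0.15). The mean log2 level of root markers was 3.25 to 3.41 on 2cysprx and 3.20 to 3.37 on WT arrays, that of floral markers 2.64 to 2.81 and 2.68 to 2.93, and that of dividing cell markers 5.39 to 5.52 and 5.05 to 5.6. The table holds no detection calls, so none of these markers can be called absent.

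Set against the other mutants in the same light, 2cysprx differed from cyp20-3 in 1328 genes (4.77%), with 2.41% higher and 2.36% lower. From oastlB it differed in 107 (0.385%), with 0.194% higher and 0.19% lower, and from serat2;1 in 308 (1.11%), with 0.5% higher and 0.607% lower. These comparisons share the 2cysprx arrays with the one against WT, so values are given side by side. For the abscisic acid list the median log2 difference of 2cysprx was -0.56 from WT, -0.50 from cyp20-3, -0.21 from oastlB and -0.24 from serat2;1, with 11, 10, 1 and 3 falls of 22. For evening clock genes it was -0.34, -0.38, -0.09 and -0.06, with 8, 8, 0 and 0 falls of 14. For flavonoid genes it was 0.37, 0.49, 0.16 and -0.07, with 9, 9, 0 and 0 rises of 26. In these 3 lists 2cysprx was thus far from WT and cyp20-3 and nearer to oastlB and serat2;1. TOC1, for example, differed by -0.78 from WT (adjusted p = 2.8e-08), -0.84 from cyp20-3 (adjusted p = 5.6e-09), -0.21 from oastlB (adjusted p = 0.3) and -0.09 from serat2;1 (adjusted p = 0.67) on the log2 scale. Chaperonins had median log2 differences of 0.46 from WT, 0.23 from cyp20-3, 0.11 from oastlB and 0.25 from serat2;1. Their rises numbered 7, 3, 0 and 1 of 8 in that order. Rises were likewise 10, 3, 0 and 0 of 23 for mitochondrial import and 15, 0, 0 and 0 of 39 for ribosomal proteins. They were 5, 3, 0 and 0 of 6 for nucleolar and 8, 4, 1 and 5 of 18 for plastid RNA polymerase-associated proteins. These lists, drawn up after their rises against WT were seen, held fewer rises against the other mutants than against WT. The same held for all genes, with 5.59% higher than in WT against 2.41%, 0.194% and 0.5% for cyp20-3, oastlB and serat2;1. For MRD1 the log2 means were 2.61 in 2cysprx, 2.52 in cyp20-3, 2.58 in oastlB, 2.65 in serat2;1 and 4.81 in WT, so WT was the genotype that stood apart. The labels do not say whether some genotypes were grown, harvested or hybridised together, and the part of such a grouping in these values was not tested.

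**Figure D4:**
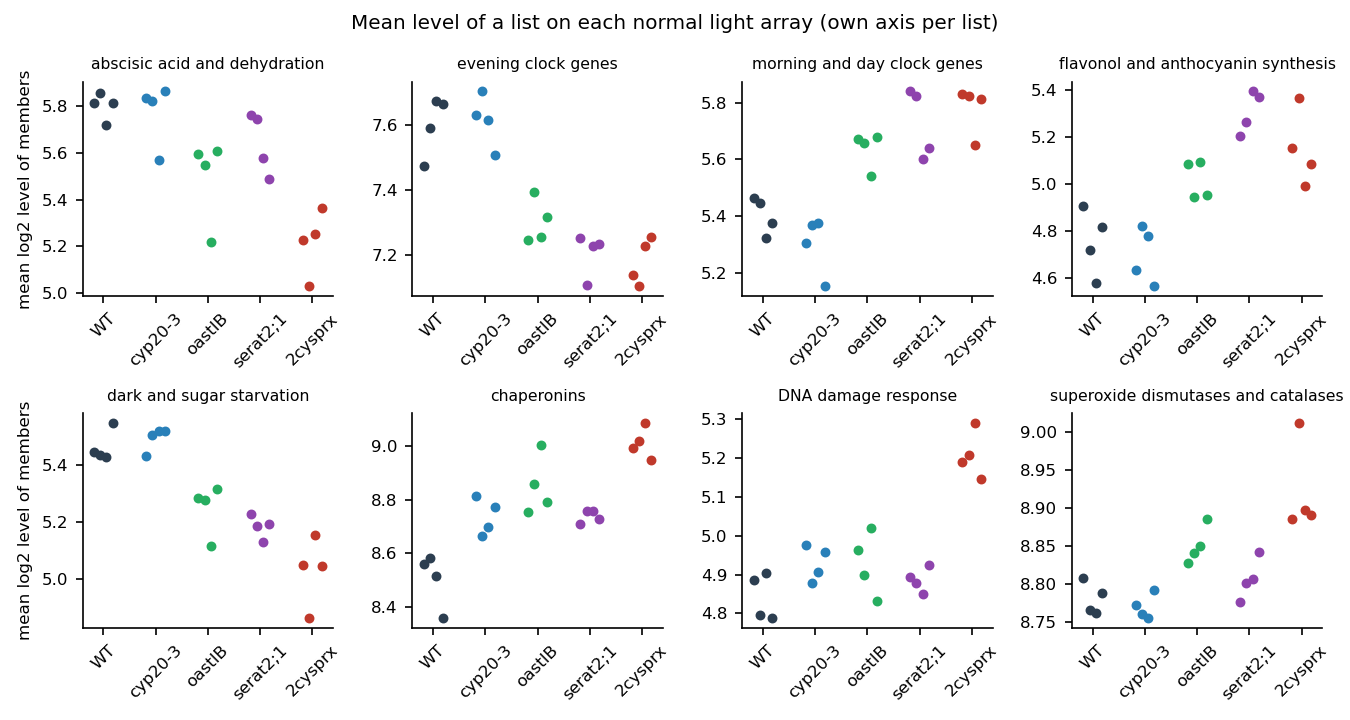
Mean log2 level of the members of 8 gene lists on each normal light array, by genotype, with an axis of its own for each list. In the clock, flavonoid and dark starvation panels the oastlB and serat2;1 arrays lie apart from WT on the side of 2cysprx, and in the DNA damage panel the 2cysprx arrays (5.15 to 5.29) lie above the 16 others. The DNA damage and chaperonin lists were drawn up after values on these arrays were seen, so their panels are descriptions.

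Genes that set 2cysprx apart from all 4 other genotypes were few. A gene was called here if its differences from WT, cyp20-3, oastlB and serat2;1 had 1 sign and the largest of the 4 p-values passed the threshold after adjustment over all genes. This held for 15 of 27826 genes (0.0539%), 5 higher and 10 lower, while 790 passed at an unadjusted p under 0.05. 2CPA and 2CPB were 2 of the 10. AT4G05370 was the highest of the 5, with log2 means of 5.30 in 2cysprx, 2.25 in WT, 2.37 in cyp20-3, 1.98 in oastlB and 2.01 in serat2;1 (adjusted p = 8.2e-11). The other 4 were AT5G53230, AT2G21640, AT5G60250 and GMI1, with log2 differences from WT of 1.39 ± 0.22, 1.16 ± 0.18, 1.17 ± 0.19 and 0.95 ± 0.19. RD29A had log2 means of 8.63 in 2cysprx, 10.28 in WT, 10.03 in cyp20-3, 9.46 in oastlB and 9.51 in serat2;1 (adjusted p = 0.0035). Its level was thus lowest in 2cysprx, with the 3 other mutants between it and WT. The others that were lower were ST2A, RLP33, AT3G29644, which is annotated as a long noncoding RNA, AT1G30250, AT3G48080, AT1G30280 and AT1G49750, with log2 differences from WT between -2.63 and -0.73. Across the 20 left-out arrays 7 of the 15 stayed called every time, namely 2CPA, 2CPB, AT4G05370, AT5G53230, AT2G21640, RD29A and AT1G49750. The count was 8 without 2cysprx replicate 1 and 30 without oastlB replicate 3. It was 6 with only the 20 normal light arrays in the fit, where RD29A and AT1G49750 missed the threshold (adjusted p = 0.072 and 0.219), and 42 with an intensity trend in the spread. Against WT alone, AT3G29644 missed the threshold with the 8 arrays (adjusted p = 0.055).

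After 6 h of high light the difference between 2cysprx and WT was another one. In high light 616 genes were called (2.21%), with 1.27% higher and 0.949% lower in 2cysprx, and for 1694 (6.09%) the high light difference itself differed from the normal light difference, 710 upward (2.55%) and 984 downward (3.54%). A 2cysprx array stood out there. Replicate 2 in high light read a log2 level of 9.0 for 2CPA, against 5.13 to 5.78 on the other 3 and 10.80 to 11.12 in WT. For 2CPB it read 7.67, against 6.41 to 7.06 on the other 3 and 9.03 to 9.60 in WT. Without this array the counts of 616 and 1694 genes were 555 and 1500. Across all genes Pearson's r between the normal and high light differences, which share no arrays, was 0.08, a description with genes that are not independent. Both targeted genes stayed low in high light, with log2 differences of -4.65 ± 0.40 for 2CPA and -2.33 ± 0.15 for 2CPB, or -5.55 and -2.56 without that array. Differences in the same direction in both lights were also found for AT4G05370 (3.05 in normal and 2.65 in high light on the log2 scale), MRD1 (-2.2 and -2.05), GPX7 (1.03 and 0.92) and NAC044 (1.55 and 2.36). These 4 were chosen after their values were seen, and each was called in both lights, with high light differences of 2.76, -2.25, 0.97 and 2.43 without replicate 2, all called.

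Several gene groups with many calls in normal light had few or none in high light. Calls over all genes went down too, from 10.1% to 2.21%, and the groups given here are ones with many normal light calls. Falls in the abscisic acid list numbered 11 of 22 in normal and 1 in high light, falls of evening clock genes 8 of 14 and 0, rises of flavonoid genes 9 of 26 and 1 (beside 1 fall), and rises of chaperonins 7 of 8 and 0. Without replicate 2 of 2cysprx in high light the high light counts of the other 3 lists stayed at 1, 0 and 0, while the flavonoid list held 1 rise and 6 falls. Other lists kept calls. Starch falls numbered 6 of 25 in normal and 5 in high light. Rises numbered 5 of 19 and 3 for DNA damage genes, and 8 of 18 and 3 for plastid RNA polymerase-associated proteins. Without that replicate the high light counts of these lists were 5, 3 and 2. The dark and sugar starvation list went the other way in high light. Of its 19 genes 8 fell and none rose in normal light, and 7 rose and none fell in high light. Without that replicate 6 rose and none fell. Some single genes turned round. GPT2 had log2 levels of 6.81 ± 0.25 (mean ± SD, n = 4) in 2cysprx and 8.60 ± 0.14 in WT in high light, a log2 difference of -1.79 ± 0.26 (adjusted p = 7.6e-05) against 1.59 ± 0.26 in normal light. The change between lights was -3.38 ± 0.37 on the log2 scale (adjusted p = 9.4e-07). For SEN1 the log2 difference went from -1.5 ± 0.30 to 1.15 ± 0.30, a change of 2.65 ± 0.43 (adjusted p = 0.00012). For J8, a small DnaJ protein of the chloroplast, it went from -0.79 ± 0.17 to 1.45 ± 0.17, a change of 2.23 ± 0.24 (adjusted p = 9.4e-07). ACHT4 went from -0.69 ± 0.13 to 0.68 ± 0.13 (change 1.37 ± 0.19, adjusted p = 1.5e-05). These 4 genes were called in opposite directions in the 2 lights. HSFA2, a heat shock factor that rises in high light, showed no call in normal light (log2 difference -0.03 ± 0.43, adjusted p = 0.98) and was lower in 2cysprx in high light (-2.51 ± 0.43, adjusted p = 0.00057). Genes chosen for a large normal light difference enter the change between lights with the same arrays. Without replicate 2 of 2cysprx in high light the changes of GPT2, SEN1, J8 and HSFA2 were -3.5, 2.53, 2.2 and -2.45, all still called, while the high light difference of SEN1 alone missed the threshold (adjusted p = 0.101). With the 8 normal light arrays alone the normal light call of J8 was lost (adjusted p = 0.067), as was that of SEN1. With only the 16 arrays of both lights in the fit the change of HSFA2 was not called (adjusted p = 0.081).

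**Figure D5:**
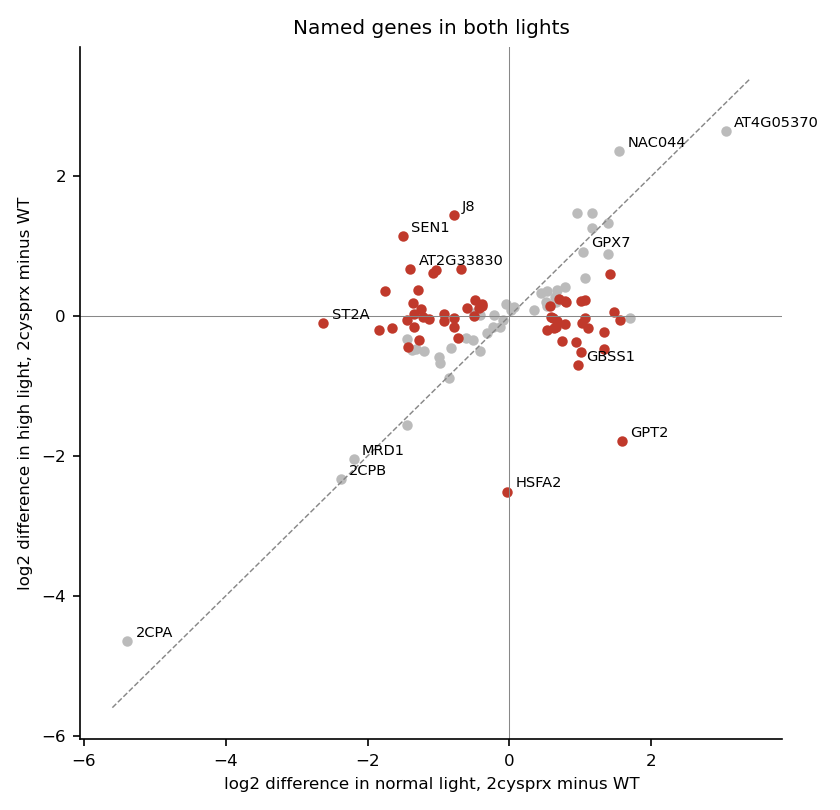
Log2 difference, 2cysprx minus WT, of 103 named genes in normal light (x axis) and high light (y axis), in red where the 2 differences differ from each other by the limma test; the dashed line marks equal differences. 2CPA, 2CPB, MRD1, NAC044 and AT4G05370 lie in the same direction in both lights, while many other genes lie near 0 in high light and GPT2 lies at 1.59 and -1.79. Most genes were named for their normal light difference and some for the change itself, so the share in red is not that of all genes.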

How the data were processed

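RNA of shoots was labelled as biotin cRNA and hybridised to 40 one-colour Affymetrix arrays, 4 for each of 10 groups. The deposited values are log2 expression levels made by the authors with RMA, per the submitters' processing notes, which name no version. All arrays had nearly the same distribution, with sorted values within 0.00193 of those of the median array, no 2 arrays held identical values, and 0 columns of the table were left unused. Depth is not a property of arrays, and their number limits the precision.

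Loci were named from the RefSeq table of assembly TAIR10.1, which held 27241 of the 27826; 585 kept the file's name. A group-means model over all 40 arrays (30 residual degrees of freedom) was fitted with limma 3.58.1 in R 4.3.3, with empirical Bayes moderation and Benjamini-Hochberg adjustment over all genes. For the genes apart from all other genotypes, the largest of 4 p-values was adjusted. The p-values measure the spread between samples that the labels call biological replicates; the labels do not say whether these were grown separately.

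Named genes were the targeted genes, the 20 largest non-overlapping rises and falls, up to 4 called members of each list, and the 5 largest changes each way of the other results; a selection is printed. CYP20-3, OASB, SERAT2;1, PRXQ and SRX were added by role. Members and lists were chosen with earlier results of these data known. Of 36 lists, 18 members lacked a symbol and 2 a probe set and were left out (of the 18, 1 rose and 2 fell); 2CPA also lacks a symbol and was kept as a targeted gene; 11 further lists were added after seeing values. Other spread estimates, normalisations, array weights, a filter on dim probe sets, a replicate block and each array left out were tried.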

Additional observations from a re-analysis of the deposited data

Results flagged for a closer look

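In 13 of the 206 groups of 4 arrays checked for the named genes (6.31%), 1 array stood far from the other 3, beyond Dixon's critical value for its gap over the range of the group. Chance gives about 1 in 20. Replicate 2 was that array in all 6 cases within 2cysprx, with log2 levels of 4.56 for AT4G05370, 4.25 for RD20, 7.28 for MSRB6, 7.03 for ROC2, 9.34 for TT4 and 7.67 for PRIN2. Within WT it was replicate 4 for RNR2A (7.18), AT5G44260 (6.21), WCRKC1 (7.45) and SCPL10 (5.01), replicate 1 for RPS5B (7.19) and AT1G30280 (6.91) and replicate 2 for PRR9 (4.64). In the calls against WT, none of these 13 genes missed the threshold when the array in question was left out.

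For 58 of the 103 named genes the difference between 2cysprx and WT in high light differed from that in normal light by the limma test of the change itself. The share over all genes was 6.09%. Most named genes were chosen for their normal light difference and some for this change itself, so a high count was built into the choice. The change, on the log2 scale and as the high light difference minus the normal light difference, was upward for 31 genes. Among the large ones with a normal light fall it was SEN1 2.65, ST2A 2.52, J8 2.23, AT5G44260 2.11, AT2G33830 2.08, TPS11 1.70, IAA29 1.69, BT2 1.66, RLP33 1.64 and AT1G30250 1.55. Further values were RD29A 1.48, COR413IM1 1.38, AT3G48080 1.37, ACHT4 1.37, COR47 1.34, RLP36 1.2, RD20 1.18, COR27 1.09, RLP38 0.99, NCED3 0.95 and ELF4 0.93. The remaining upward changes were WRKY70 0.85, TOC1 0.75, BAM1 0.71, WCRKC1 0.71, FKF1 0.63, NYC1 0.56, PPH 0.55, CAT3 0.53, GPX5 0.51 and AT1G49750 0.41. It was downward for 27 genes, with FIB2 -1.31, AT3G49320 -1.42, TT4 -1.52, ERD9 -1.56, AT1G51380 -1.62, GBSS1 -1.67, PRR9 -1.81, HSFA2 -2.48 and GPT2 -3.38 at the lower end. The next were RPS5B -0.80, TIM8 -0.81, AT1G13650 -0.82, FLN2 -0.84, NOP56 -0.89, ROC2 -1.09, Cpn60beta2 -1.10, SCPL10 -1.13 and FLS1 -1.28. The smallest were FD1 -0.43, PTAC12 -0.45, RNR2A -0.58, PRIN2 -0.60, CPHSC70-2 -0.60, FSD3 -0.64, APR2 -0.72, CPN10 -0.74 and EMB2729 -0.79. Of the 58 genes, 52 were also called without 2cysprx replicate 2 in high light, and RD20, WRKY70, AT1G49750, FD1, PRIN2 and AT1G13650 were not.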

How the results depend on the processing

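Of the 3 counts of genes, that against WT in normal light moved most with the arrays used for the spread, from 2819 to 618 with the 8 compared arrays alone. The count for the change between lights went from 1694 to 1006 with its 16 arrays alone. That of genes apart from all 4 other genotypes went from 15 to 6 with its 20 arrays alone, where fewer arrays leave fewer degrees of freedom. The latter count was 42 with an intensity trend in the spread, a move whose cause was not tested, and 32 with brighter probe sets alone, where fewer genes were tested. Leaving out each array in turn gave 1954 to 2875, 1267 to 1835 and 8 to 30 genes. Cyclic loess normalisation and array weights kept all 3 counts within 1.5 times. So did quantile normalisation, which could change little because the arrays already had nearly the same distribution. Replicate numbers did not pair the samples, since deviations of same-numbered arrays correlated at -0.11 to 0.08 and 2 of 4 correlated best with their own number. With the replicate number as a block the counts were 2995, 1809 and 14. Single-gene values against WT were counted once per gene and setting. Of these, 33 of 705 missed the threshold under another setting and 14 of 824 with an array left out, and none reversed. By gene, 66 of the 97 named genes called against WT stayed called under every setting. With the 8 arrays alone 31 were lost, and with an array left out 5. The counts of list members without each array were added after seeing the data. The table holds no detection calls or signal over background, so a bound for dim probe sets could not be set.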
